A study of Mus musculus with 6 samples.

Results

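The 10 genes described here encode the enzymes and the carrier that store, move and spend high-energy phosphate in muscle: the creatine kinases Ckm, Ckb, Ckmt1 and Ckmt2, the creatine synthesis enzymes Gatm and Gamt, the creatine transporter Slc6a8, and the AMP deaminases Ampd1, Ampd2 and Ampd3. They were taken by gene symbol, and all 10 were found among the 54525 gene rows of the count tables.

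RNA-seq was measured in C2C12 cells, an immortalised line of mouse muscle precursors, at day 0 as myoblasts (D0, 3 libraries) and at day 5 of differentiation as myotubes (D5, 3 libraries). All 6 libraries were labelled wild type (WT) and without treatment, so both groups share a single cell line and differ in the labels by day alone. C2C12 is a line in culture, without the nerve, vessels or fibre types of a muscle. The labels number the libraries within each day but do not tie them to separate passages, so the p-values below measure the spread between these libraries. In bulk RNA, a change in the share of cells that express a gene and a change in the RNA per cell cannot be told apart.

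Creatine kinases transfer a phosphate between ATP and creatine. The mitochondrial forms, Ckmt1 (ubiquitous) and Ckmt2 (sarcomeric), make phosphocreatine beside the adenine nucleotide exchange across the mitochondrial membranes, and the cytosolic forms, Ckm (muscle) and Ckb (brain), use it to rebuild ATP where ATP is spent. Cells obtain creatine either by synthesis, in which Gatm makes guanidinoacetate from arginine and glycine and Gamt methylates it, or by uptake through Slc6a8. When ATP is spent quickly, adenylate kinases convert ADP into ATP and AMP, AMP deaminases convert AMP into IMP, and adenylosuccinate synthetase and adenylosuccinate lyase return IMP to AMP, which closes the purine nucleotide cycle. Ampd1 is the skeletal muscle form, while Ampd2 and Ampd3 are found in many tissues.

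Because 3 of the creatine kinase genes rose between D0 and D5, the sequences before their start sites are shown first. Each is the 250 bases before the RefSeq start on assembly GRCm38.p6, printed 5′ to 3′ on the strand of the gene, with matches to the E-box (CANNTG, the motif that MyoD and myogenin bind), the MEF2 site and the CArG box in capitals. Ckm lies on the plus strand of chromosome 7 with this window at chr7:19410844-19411093, Ckb on the minus strand of chromosome 12 at chr12:111672339-111672588, and Ckmt2 on the minus strand of chromosome 13 at chr13:91876886-91877135.
Ckm: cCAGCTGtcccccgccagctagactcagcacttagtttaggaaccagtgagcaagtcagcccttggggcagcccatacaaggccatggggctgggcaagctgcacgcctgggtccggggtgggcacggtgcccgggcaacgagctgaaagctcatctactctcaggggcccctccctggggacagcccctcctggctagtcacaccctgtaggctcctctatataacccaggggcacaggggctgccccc
Ckb: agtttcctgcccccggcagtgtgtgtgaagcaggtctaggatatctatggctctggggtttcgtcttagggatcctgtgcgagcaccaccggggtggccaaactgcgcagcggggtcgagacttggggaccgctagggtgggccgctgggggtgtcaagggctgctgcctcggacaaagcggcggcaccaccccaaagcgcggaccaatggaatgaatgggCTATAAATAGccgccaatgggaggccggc
Ckmt2: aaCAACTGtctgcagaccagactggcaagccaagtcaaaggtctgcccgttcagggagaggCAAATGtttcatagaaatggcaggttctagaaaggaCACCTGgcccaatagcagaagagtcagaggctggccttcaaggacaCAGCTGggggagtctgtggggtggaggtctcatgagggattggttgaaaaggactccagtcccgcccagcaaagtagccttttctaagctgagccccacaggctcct

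The Ckm window held 1 E-box, CAGCTG, 249 bases before the start. The Ckmt2 window held 4 E-boxes, at 248, 189, 153 and 107 bases before the start, of which the nearest to the start was again CAGCTG. The Ckb window held no E-box and 1 MEF2 match, 29 bases before the start, which overlapped a TATAAA match, and it also held 2 CCAAT boxes at 46 and 16 bases before the start. Over the 32851 RefSeq promoters of the same length, searched on both strands, 66.2% held an E-box of any kind, 13.0% held CAGCTG, 17.2% held CAGGTG or CACCTG, 2.92% a MEF2 site, 33.8% a CCAAT box and 12.4% a TATAAA box. An E-box is therefore common in windows of this length, and a match is given as letters in the sequence. Of the other members, Gatm held 1 E-box (CACCTG, 71 bases before the start) and Gamt held none and 3 GC boxes (GGGCGG on either strand, present in 32.7% of promoters). Ckmt2 and Gatm also held 2 CCAAT boxes each. Genes with several RefSeq starts had several windows. Ckmt1 held no E-box in windows 1 and 2, and Ampd2 held 1 E-box (CATCTG) in each of its windows. Ampd3 held 1 E-box in window 1, 3 in window 2 and none in window 3, which held 1 CArG box (present in 1.47% of promoters). A RefSeq window was matched for 8 of the 10 genes; Slc6a8 and Ampd1 were not matched.

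Gene counts summed to between 36555048 and 40895840 per library at D0 and between 25449759 and 25811300 at D5. At this depth 3 counts, taken as the floor of detection, correspond to 0.0734 to 0.0821 CPM (counts scaled to library size) at D0 and 0.116 to 0.118 at D5. The markers went with the labels. Myog, a myotube transcription factor, had 94 to 124 counts at D0 and 12737 to 12920 at D5, the 5 myotube markers were all higher at D5, and the 4 proliferation markers (Mki67, Top2a, Ccnb1 and Cdk1) were all lower. Of the myoblast-line markers, with TMM scaling (edgeR's trimmed mean of M-values), Des went from 2014 to 3316 CPM (log2 0.72, edgeR adjusted p = 1.2e-18) and Myod1 from 207 to 126 CPM (log2 -0.71, adjusted p = 6.3e-18), so both were well above the floor on both days. Of 13 markers of brain, endothelium, smooth muscle, heart, fat and immune cells, 10 were at 10 counts or fewer in every library, including the neuronal Snap25 and the immune Ptprc with at most 1 count. Their summed level was 5.34 to 5.59 CPM at D0 and 27.0 to 33.4 at D5, of which the heart myosin gene Myh6 (584, 719 and 690 counts at D5) made up all but 3.30 to 4.22. ERCC spike-in RNA made up 0.859, 0.828 and 0.726% of counts at D0 and 1.20, 0.720 and 2.09% at D5. The part of these other markers in the results was not tested.

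Most genes differed between the days, and the counts of members are set against that background. By edgeR's quasi-likelihood test with Benjamini-Hochberg adjustment over 16290 genes tested, 42.2% of the genes were higher at D5 and 40.8% were lower at an adjusted p under 0.05. Of the 10 members, 9 were tested, 7 were higher at D5 (Ckm, Ckb, Ckmt2, Gamt, Slc6a8, Ampd1 and Ampd3), 2 were lower (Gatm and Ampd2), and Ckmt1 had too few counts to test; with the ERCC spike-in scaling described below, 4 were higher and 1 was lower, and the values of Gamt, Slc6a8 and Ampd3 turned negative. The 3 libraries of D5 did not overlap those of D0, in CPM, for the same 7 genes higher and the same 2 lower, a pattern shown by 42.2% (higher) and 41.1% (lower) of the genes tested. The median log2 fold change was 0.49 over the 9 tested members and 0.00 over all genes tested, with Ckmt2 and Ampd1 having reached the filter on low counts only through the D5 libraries.

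**Figure D1:**
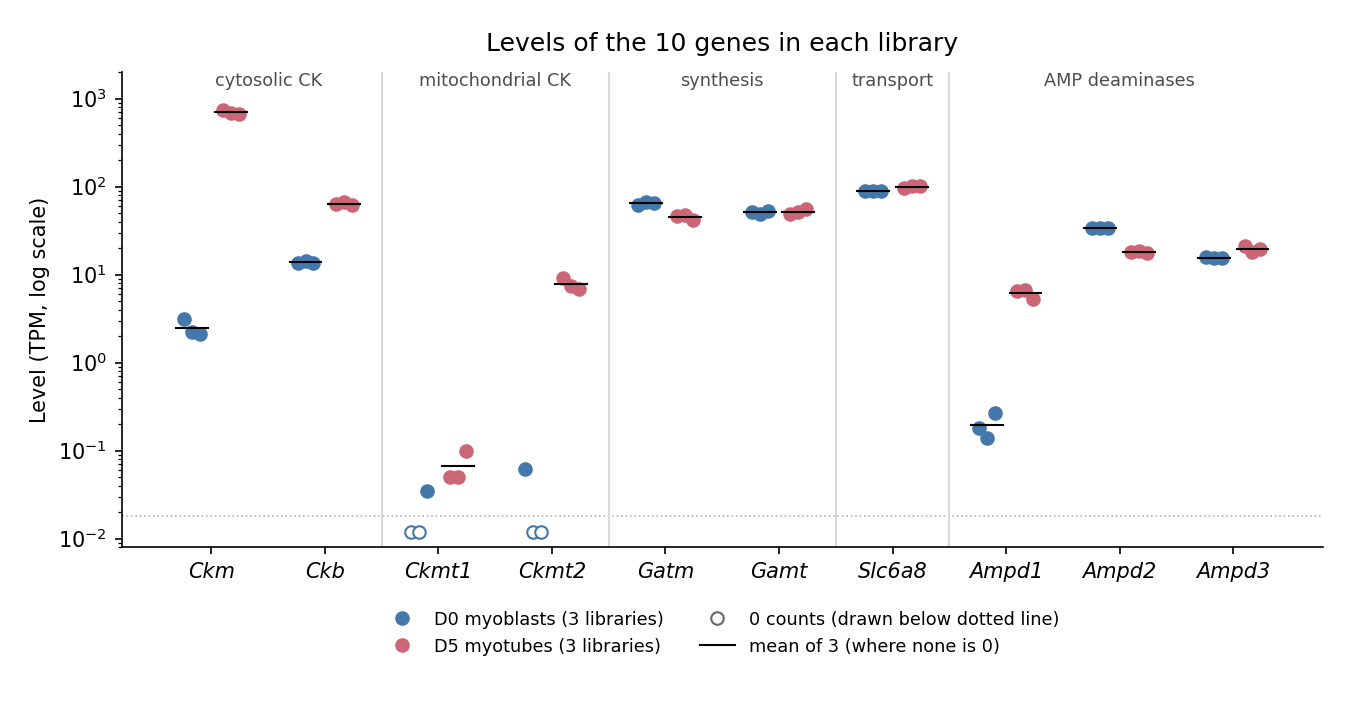
Level of each of the 10 genes in each library, in TPM on a log axis, with D0 myoblasts in blue, D5 myotubes in red, means as black lines and libraries with 0 counts as open circles under the dotted line. Ckm moves from 2.09 to 3.12 TPM at D0 to 666 to 733 TPM at D5, while Gamt overlaps between the groups.

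Ckm, the muscle creatine kinase, was counted 100, 78 and 70 times at D0, against 16917, 16200 and 15653 times at D5. In TPM (counts divided by the exonic length of the gene and scaled to the same sum in each library, so that levels of different genes can be compared), the level was 2.47 ± 0.560 (SD, n = 3) at D0 and 696 ± 34.4 at D5. Every D5 library was far above every D0 library, and the groups did not overlap. Fold changes here and below are edgeR's estimates on library-scaled counts and differ somewhat from ratios of TPM. The log2 fold change of Ckm was 8.30 (SE 0.0655), a 315-fold rise, with an adjusted p of 2.6e-38 by edgeR. By size of rise Ckm was rank 158 of the 16290 genes tested, and by mean TPM it moved from rank 12309 at D0 to rank 144 at D5. The gene lies at chr7:19404776-19422841 (GRCm38, plus strand), with the RefSeq start used for the window above inside this span, and 15.5% of its exonic length is overlapped on the opposite strand by A930016O22Rik, which had at most 2 counts at D0 and 34 to 57 at D5.

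Ckb, the brain-type cytosolic creatine kinase, had 428, 506 and 448 counts at D0 and 1452, 1555 and 1449 at D5. The level was 13.8 ± 0.563 TPM at D0 and 63.9 ± 2.30 TPM at D5 (SD, n = 3), without overlap between the groups. The rise was 5.17-fold (log2 2.37, SE 0.0528, edgeR adjusted p = 7.4e-27). The name of the gene comes from brain, and the brain markers Snap25, Syt1 and Gfap were at 5 counts or fewer in every library. Ckb lies at chr12:111669361-111672338 on the minus strand. It shares 9.98% of its exonic 50-base words with other genes, the pseudogenes Ckb-ps1 and Ckb-ps2, which had 0 counts in all libraries, and Gm12892, which had 9, 3 and 16 counts at D0 and 67, 74 and 68 at D5, so the counts of Ckb and Gm12892 cannot be fully told apart.

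The cytosolic pair exchanged places. Ckm made up 18.8, 13.3 and 13.4% of the summed Ckm and Ckb TPM in the D0 libraries and 92.1, 91.2 and 91.5% in the D5 libraries. The mean share was 15.2 ± 3.17% at D0 and 91.6 ± 0.437% at D5, a gain of 76.4 percentage points (two-sided exact permutation test over libraries, p = 0.1, the smallest that 3 against 3 allows). Such a share is computed within a library and does not depend on how libraries are scaled to each other. Ckb therefore rose in level while its share fell from 84.8% to 8.43%.

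Ckmt2, the sarcomeric mitochondrial creatine kinase, had 1, 0 and 0 counts at D0 and 108, 88 and 83 counts at D5. D0 was thus at or under the floor, and the D5 level was 7.81 ± 1.20 TPM (SD, n = 3). With 1 count over the D0 libraries and 279 over the D5 libraries, the ratio relative to library size was 448, with an exact 95% interval of 79.7 to 17746 that covers counting error only. The edgeR adjusted p was 7.1e-18, and the fitted log2 value of 8.26 moved to 9.87 without D0 replicate 1, the library with the single count, so the size of this rise is poorly set by the data. Ckmt2 lies at chr13:91853387-91876885 on the minus strand.

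Ckmt1, the ubiquitous mitochondrial form, on chromosome 2 at chr2:121357714-121363737, had 0, 0 and 1 counts at D0 and 1, 1 and 2 at D5. Both groups were at or under the floor, and no fold change is given. Of the summed mitochondrial creatine kinase TPM at D5, Ckmt2 made up 99.5, 99.3 and 98.6%. Over all 4 creatine kinases at D5, Ckm made up 90.6%, Ckb 8.34% and Ckmt2 1.01% of the summed TPM, so the mitochondrial form was detected at a low level beside the cytosolic ones.

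**Figure D2:**
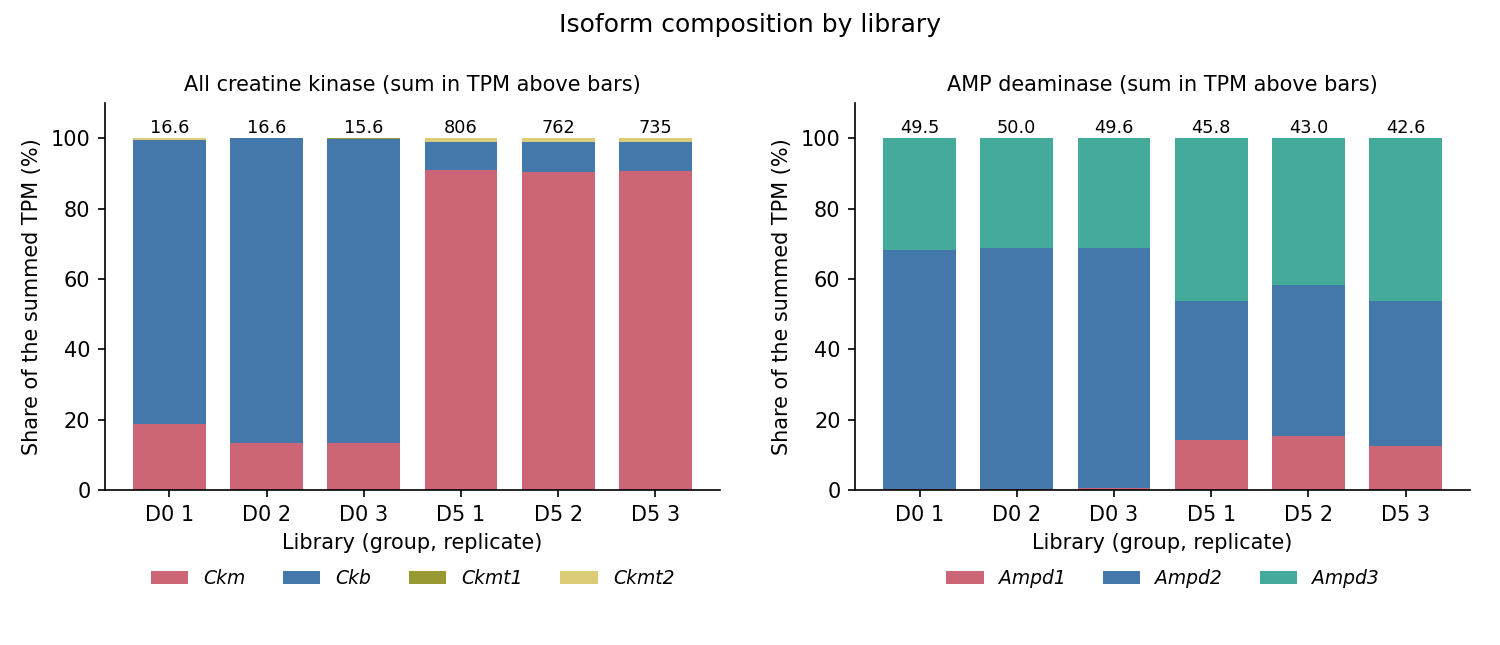
Share (%) of each isoform in the summed TPM of the creatine kinases (left) and of the AMP deaminases (right) in each of the 6 libraries, with the sum in TPM above each bar. The creatine kinase sum rises from 15.6 to 16.6 TPM at D0 to 735 to 806 TPM at D5 and turns from mostly Ckb to mostly Ckm. The AMP deaminase sum moves from 49.5 to 49.95 TPM at D0 to 42.6 to 45.8 TPM at D5.

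The summed TPM of the 4 creatine kinases was 16.6, 16.6 and 15.6 at D0 and 806, 762 and 735 at D5. This is a 47.2-fold rise, from 16.3 ± 0.584 to 767 ± 35.8 (SD, n = 3; exact permutation p = 0.1, the smallest possible). Ckmt2 contributed 6.92 to 9.17 TPM of the sum at D5.

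With TMM scaling the creatine synthesis genes moved little and in different directions, and the rise of Gamt was not stable to the settings. Gatm, which makes guanidinoacetate, had 61.6, 67.0 and 64.7 TPM at D0 and 46.1, 47.1 and 41.2 TPM at D5. All D5 libraries were below all D0 libraries, and the level at D5 was 77.5% of that at D0 on the CPM scale (log2 -0.37, SE 0.047, edgeR adjusted p = 2.9e-08). Scaled to the ERCC spike-ins the log2 value was -0.90, with an adjusted p of 0.173. Gatm lies at chr2:122594467-122611303 on the minus strand.

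Gamt, which methylates guanidinoacetate to creatine, had 51.8, 49.2 and 53.2 TPM at D0 and 49.2, 51.2 and 55.3 TPM at D5. The groups overlapped on this scale (51.4 ± 2.02 and 51.9 ± 3.12 TPM, SD, n = 3), although in CPM scaled by TMM the D5 values of 22.4, 24.2 and 25.9 all lay above each D0 library (mean 21.5). The edgeR estimate was a 1.13-fold rise (log2 0.17, SE 0.0575, adjusted p = 0.00696). The call was lost without D0 replicate 2 (log2 0.13, adjusted p = 0.0624), without D5 replicate 3 (0.12, 0.0737), with library totals alone (0.089, 0.151) and with no filter on low counts (0.12, 0.0740), and scaling to the spike-ins turned the sign (-0.41). For Gamt, at chr10:80258151-80261012 on the minus strand, a difference between D0 and D5 was thus not stable to these settings.

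Summed over both synthesis genes, the level was 113, 116 and 118 TPM at D0 and 95.3, 98.3 and 96.6 TPM at D5. The D5 mean was 83.5% of the D0 mean (116 ± 2.24 and 96.7 ± 1.52 TPM, SD, n = 3; exact permutation p = 0.1, the smallest possible). Gatm made up 55.6 ± 1.78% of the sum at D0 and 46.3 ± 3.15% at D5.

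Slc6a8, the sodium- and chloride-dependent creatine transporter, was the most abundant of the 10 genes at D0. It had 88.7, 89.3 and 89.8 TPM at D0 and 96.1, 100.2 and 101.8 TPM at D5, without overlap. The rise was 1.24-fold (log2 0.31, SE 0.0354, edgeR adjusted p = 2.5e-09), and the sign turned to -0.25 with an adjusted p of 0.733 when the libraries were scaled to the ERCC spike-ins. Slc6a8 lies on chromosome X at chrX:73673150-73682502, and by mean TPM it moved from rank 1803 to rank 1427 of the genes tested. No 50-base word of its exons was shared with another gene.

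In TPM, the AMP deaminases changed in composition more than in amount. Ampd1, the skeletal muscle form, had 7, 6 and 11 counts at D0 and 183, 190 and 153 at D5. The level went from 0.196 ± 0.0669 TPM to 6.16 ± 0.711 TPM (SD, n = 3), and every D5 library was above every D0 library. The rise was 34.5-fold (log2 5.11, SE 0.205, edgeR adjusted p = 3.9e-20). Its D0 counts were above the floor of 3 but low, and by mean TPM it ranked 15368 at D0 and 10061 at D5. Ampd1 lies at chr3:103074014-103099720 on the plus strand.

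Ampd2, a widely expressed form, had 33.6, 34.2 and 33.9 TPM at D0 and 18.1, 18.5 and 17.6 TPM at D5. All D5 libraries were below all D0 libraries, and the level at D5 was 59.4% of that at D0 in CPM (log2 -0.75, SE 0.0447, edgeR adjusted p = 9.3e-16). Scaled to the ERCC spike-ins the log2 value was -1.30 (edgeR adjusted p = 0.0413), so the amount of the fall depends on the scaling. Of the 2 members that fell with TMM scaling, Ampd2 had the larger fall, at rank 3527 by size of fall among the genes tested.

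Ampd3, the erythrocyte form, had 15.7, 15.6 and 15.4 TPM at D0 and 21.2, 17.9 and 19.7 TPM at D5. The rise was 1.40-fold (log2 0.49, SE 0.0513, edgeR adjusted p = 5.5e-10), and the sign turned to -0.10 with an adjusted p of 0.898 with the ERCC spike-in scaling. Ampd2 lies at chr3:108074062-108086651 on the minus strand and Ampd3 at chr7:110768206-110812405 on the plus strand. On the opposite strand Gm12500 overlaps 8.31% of the exonic length of Ampd2, with 23 to 35 counts at D0 and 8 to 14 at D5. Of the exonic length of Ampd3, 6.95% is overlapped on the opposite strand and 1.48% on the same strand by Rnf141, B430319F04Rik and Gm47282 between them. Rnf141 had 1271 to 1501 counts at D0 and 728 to 785 at D5, so the counts of Ampd3 and Rnf141 cannot be fully told apart. Ampd3 also shares 5.28% of its 50-base words with many other genes.

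Within the AMP deaminase sum, Ampd2 made up 68.0, 68.5 and 68.4% at D0 and 39.6, 42.9 and 41.4% at D5. Ampd3 went from 31.3 ± 0.287% to 44.6 ± 2.59%, and Ampd1 from 0.395 ± 0.135% to 14.1 ± 1.45% (SD, n = 3). The exact permutation p was 0.1 for each share, the smallest that 3 against 3 allows. The sum itself was 49.5, 49.95 and 49.6 TPM at D0 and 45.8, 43.0 and 42.6 TPM at D5, lower without overlap. The D5 mean was 88.2% of the D0 mean (exact permutation p = 0.1, again the smallest possible). Ampd1 thus remained the smallest of the 3 at D5 despite its rise, and Ampd2 and Ampd3 overlapped at D5 with this exonic length. With the length of the longest transcript in its place, Ampd3 made up 49.2, 44.6 and 49.1% of the sum at D5. Ampd2 then made up 37.4, 40.8 and 39.1%, so whether the 2 overlap depends on the length used.

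The order of the levels per length differed between the days. At D0 it ran, from high to low, Slc6a8, Gatm, Gamt, Ampd2, Ampd3, Ckb, Ckm, Ampd1, Ckmt2 and Ckmt1, and only Ckmt2 and Ckmt1 overlapped as neighbours. At D5 it ran Ckm, Slc6a8, Ckb, Gamt, Gatm, Ampd3, Ampd2, Ckmt2, Ampd1 and Ckmt1, and only Ampd3 and Ampd2 overlapped as neighbours. These orders and overlaps hold for the summed exonic length. With the length of the longest transcript, Gatm and Gamt overlapped at D0. At D5, Gamt then lay above Ckb, Ckmt2 and Ampd1 overlapped, and Ampd3 and Ampd2 did not. Myoblasts thus held more transcript of the creatine transporter and of the synthesis enzymes than of any creatine kinase, and myotubes held more Ckm than any other of the 10.

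**Figure D3:**
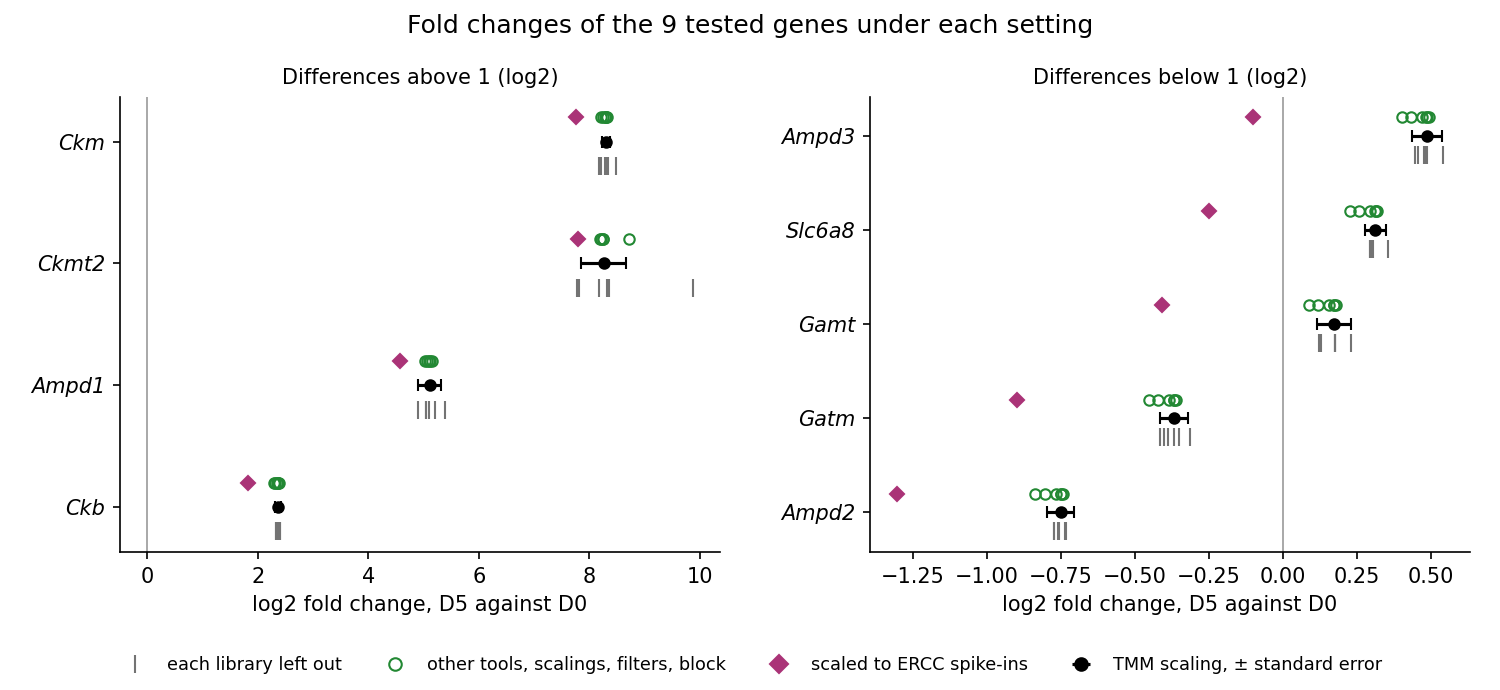
Log2 fold change (D5 against D0) of the 9 tested genes under each setting, with the genes that changed by more than 1 on the left and by less than 1 on the right; black points are the edgeR estimates with TMM scaling and standard errors, grey ticks leave out each library, green circles are other tools, scalings, filters or the replicate block, and purple diamonds are the ERCC spike-in scaling. Ckm, Ckmt2, Ampd1 and Ckb stay at or above 1.83, whereas the spike-in scaling moves Gamt, Slc6a8 and Ampd3 to -0.41, -0.25 and -0.10.

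The sign of the small changes differed with how the libraries were scaled to each other. With TMM, 50.8% of the genes called were higher at D5, and with the ERCC spike-in totals 32.6% were, since that scaling moved the median log2 fold change of all genes to -0.58. On that scaling Ckm, Ckb, Ckmt2 and Ampd1 remained higher and Ampd2 remained lower. Relative to the shifted median, the log2 differences were 8.33 for Ckm, 2.41 for Ckb, 8.38 for Ckmt2, 5.16 for Ampd1, 0.48 for Ampd3, 0.33 for Slc6a8, 0.17 for Gamt, -0.32 for Gatm and -0.72 for Ampd2. Subtracting the median takes out the shift that the spike-ins made. These differences therefore lie near the TMM values by construction and are not a separate check of their signs. The spike-in share differed from 0.720 to 2.09% among the D5 libraries, which is wider than the 0.726 to 0.859% among the D0 libraries.

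The other steps of the purine nucleotide cycle were 3 genes, and all 3 passed the test. Over all genes tested, 42.2% were called higher at D5 and 40.8% lower. The counts of this list and of the lists below are set against these shares, so a list in which most genes passed does not stand out. Adssl1 (also called Adss1), the muscle adenylosuccinate synthetase, had 251, 279 and 262 counts at D0 and 3117, 3170 and 3072 at D5, a 19.0-fold rise (log2 4.24, SE 0.0489, edgeR adjusted p = 3.3e-34). Adss (also called Adss2), the widely expressed synthetase, had 5785, 6595 and 6296 counts at D0 and 1082, 897 and 918 at D5, and its level at D5 was 24.9% of that at D0 (log2 -2.01, SE 0.0451, adjusted p = 9.3e-27). The muscle form of the synthetase thus rose and the other form fell, as was the case for Ampd1 and Ampd2. Ampd3, which is also found in many tissues, did not share this fall with TMM scaling (log2 0.49) and was at -0.10 with the spike-in scaling. Adsl, the lyase shared by both routes, rose 1.24-fold with TMM scaling (log2 0.31, adjusted p = 4.2e-08) and was at -0.24 with the spike-in scaling.

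Of 8 adenylate kinases, 7 were tested, of which 4 rose (2 where at least 10 counts were required in every library), 2 fell and Ak4 did not pass the test, with a median log2 fold change of 0.36. Ak1, the main muscle adenylate kinase and the most abundant of the list by TPM averaged over both days, had 3302, 3571 and 3294 counts at D0 and 9139, 9058 and 9249 at D5, a 4.33-fold rise to 440 TPM (log2 2.11, SE 0.0347, adjusted p = 2.6e-30). The largest rise in the list was in Ak5 (log2 2.88, adjusted p = 1.0e-08), from 4 to 8 counts at D0 to 20 to 28 at D5. The largest fall was in Ak6 (log2 -1.11, adjusted p = 2.2e-15), which shares 56.5% of its exonic length on the same strand and 2.64% on the opposite strand with other genes (Rad17 and Taf9 between them), so its counts are uncertain.

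Of 17 nucleotidase and purine salvage genes, 14 were tested, 6 rose and 8 fell (2 and 4 with the spike-in scaling), with a median log2 fold change of -0.20. The number that rose was 5 with DESeq2, upper-quartile factors or library totals, and 5 to 7 without each library in turn. Only 5 of the 6 were higher at D5 without overlap between the groups. Nt5e, the surface enzyme that makes adenosine from AMP, rose most (log2 3.03, SE 0.205, adjusted p = 2.0e-14), from 12, 21 and 22 counts at D0 to 105, 96 and 81 at D5. Gmpr2, a GMP reductase, fell most (log2 -1.58, adjusted p = 1.8e-19), with 43.9% of its exonic length overlapped on the opposite strand by Nedd8 and Tinf2. Hprt, which salvages hypoxanthine and guanine and was the most abundant of the list by the same average, fell to 71.7% of its D0 level (log2 -0.48, adjusted p = 8.5e-11), a call that the spike-in scaling lost (log2 -1.01, adjusted p = 0.119).

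The mitochondrial partners of creatine kinase, the adenine nucleotide carriers and the voltage-dependent anion channels, changed by little. Of 6 listed, 5 were tested, 3 rose, 1 fell and Vdac3 did not pass the test, with a median of 0.15. Slc25a4, the carrier form of heart and muscle, went from 287 ± 7.75 to 375 ± 5.52 CPM (SD, n = 3; log2 0.39, edgeR adjusted p = 3.1e-12), and Slc25a5 went from 258 ± 6.90 to 222 ± 10.7 (log2 -0.21, edgeR adjusted p = 2.4e-06). With the spike-in scaling Slc25a4 was at -0.17 and Slc25a5 at -0.77, and none of the 5 passed edgeR's test with that scaling (0 at an unadjusted p under 0.05), while DESeq2 with its own size factors called 3 higher and 1 lower.

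The genes that supply arginine, glycine and methyl groups to creatine synthesis were 12, of which 10 were tested, 4 rose (1 with the spike-in scaling) and 6 fell, with a median log2 fold change of -0.53. Slc7a2, a cationic amino acid transporter, rose most, from 537, 588 and 603 counts at D0 to 2752, 2510 and 2675 at D5 (7.37-fold, log2 2.88, adjusted p = 1.5e-30). Ass1, the argininosuccinate synthetase that begins arginine synthesis from citrulline, fell most, from 4888, 5562 and 4909 counts to 483, 472 and 487 (15.1% of D0, log2 -2.73, adjusted p = 4.4e-30). Mat2a, which makes the methyl donor S-adenosylmethionine, was the most abundant by TPM averaged over both days, at log2 0.33 with TMM (adjusted p = 3.2e-10) and -0.21 with the spike-in scaling.

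**Figure D4:**
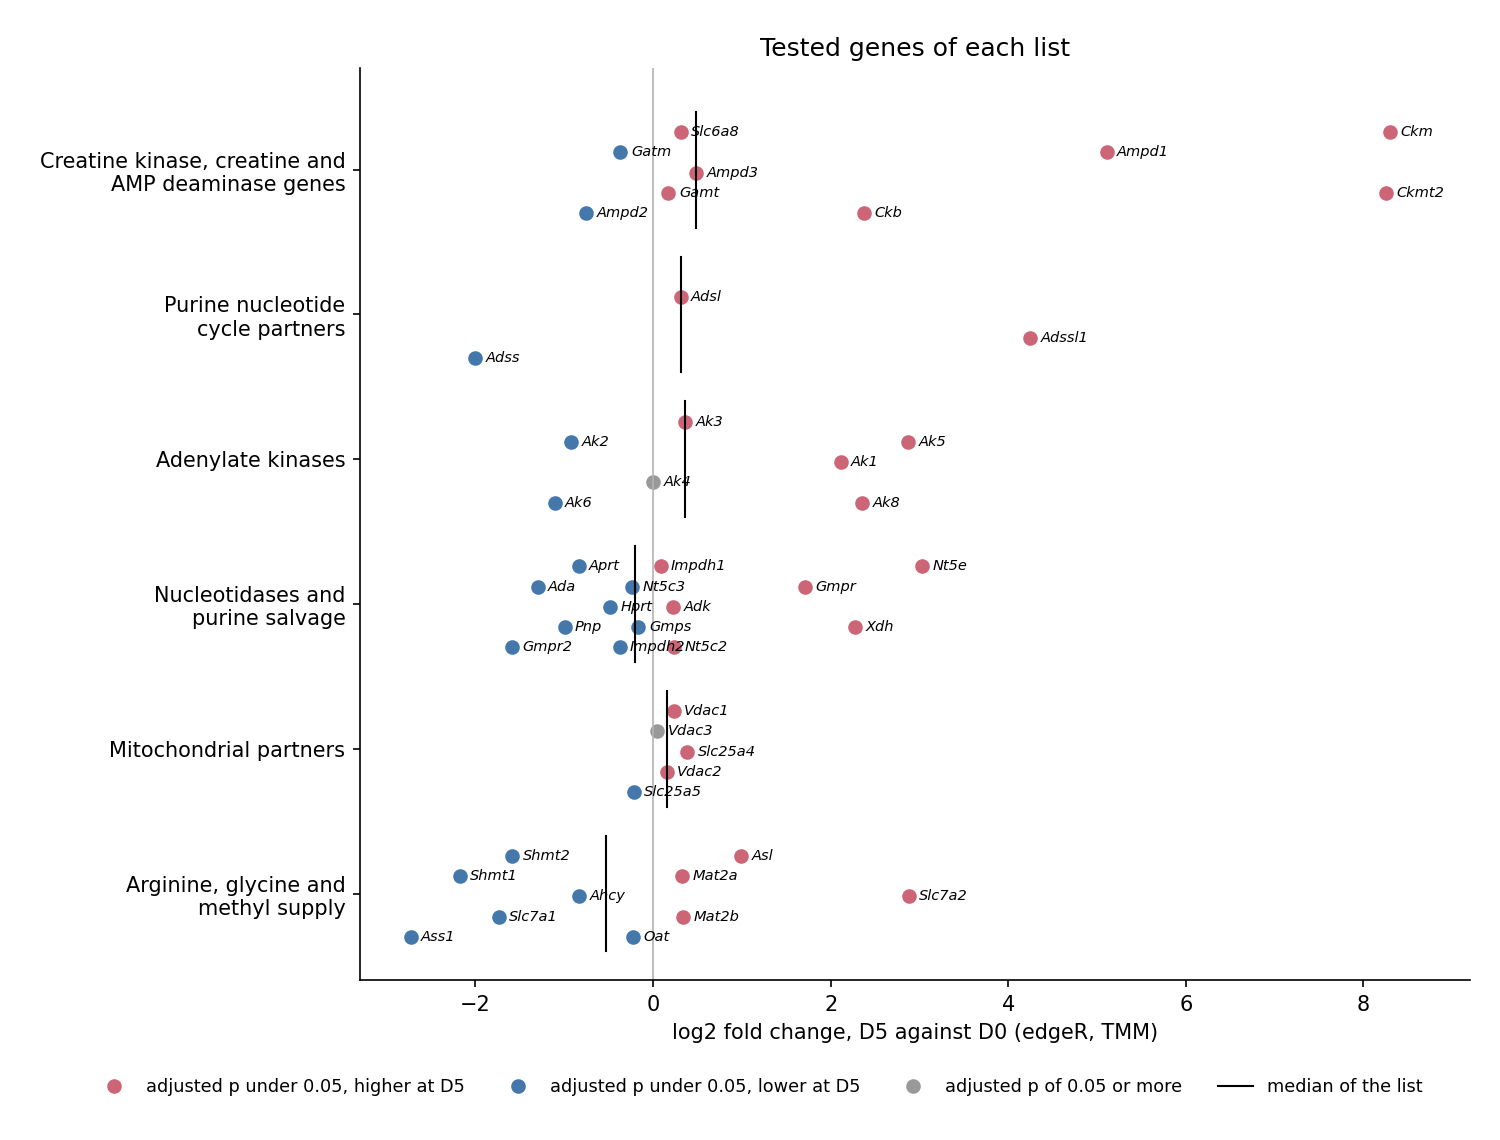
Log2 fold change (D5 against D0, edgeR with TMM scaling) of every tested gene in the creatine kinase, creatine and AMP deaminase set and in 5 lists of neighbouring pathways, coloured by the call, with the median of each list as a black line. Ckm, Ckmt2 and Ampd1 stand at the right with Adssl1, and Adss and Ass1 at the left; the positive values of Gamt, Slc6a8, Ampd3, Adsl, Slc25a4 and Mat2a turn negative with the ERCC spike-in scaling.

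The genes nearest to 4 members in pattern over the 6 libraries are given as a description, ranked by the root mean square difference of centred log2 CPM among tested genes of at least 10 CPM on average. For Ckm they included Hfe2 (0.197), which encodes hemojuvelin, and Mybph (0.204), which encodes a myosin binding protein. For Ckb they were Gpd1l (0.0336), Hmgcs1 (0.0386) and Gm32618 (0.0468), and Hmgcs1 encodes an enzyme of cholesterol synthesis. For Slc6a8 they were Cacfd1 (0.0174), Mcc (0.0202) and Dgkz (0.0205), and for Ampd1 they were Ccdc162 (0.132), Fst (0.185), which encodes the activin and myostatin antagonist follistatin, and Pstpip1 (0.200). With 2 groups of 3 libraries the measure is mostly the difference between the days.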

How the data were processed

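Counts per gene from 6 RNA-seq libraries of total RNA (C2C12, D0 and D5, n = 3 each) were used as deposited. Per the labels, the authors aligned quality-filtered reads to GRCm38 (mm10) with Tophat2, whereas the study's methods name HISAT2, and counted reads per gene with featureCounts; the labels also list DESeq2 1.6.3. The values are raw counts. The strand setting, the treatment of reads with several positions and the annotation release are not given in the sources used here, so reads of genes that overlap or share sequence cannot be separated. A row of totals without a gene name, equal to the sum of all other rows, was left out, and 92 ERCC spike-in rows were kept out of library sizes and tests.

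D5 was compared with D0 by edgeR 4.0.16 (R 4.3.3): filterByExpr, TMM scaling, the quasi-likelihood test, and Benjamini-Hochberg adjustment over 16290 genes with a threshold of 0.05. The script was tested on simulated data in which most genes did not differ between the groups. Most genes did differ in these data, so that test does not bear on the choice of scaling. Shares used the exact permutation test of scipy 1.17.1. TPM used the summed exonic length in GENCODE annotation of GRCm38 (54488 of 54525 rows matched by identifier); this length covers all isoforms, and a gene with long rare isoforms gets a lower TPM. Promoter sequences are from RefSeq.

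The named genes are all 10 members, the partners in the purine nucleotide cycle, the largest rise, the largest fall and the most abundant gene of each other list by mean TPM over all libraries, the 3 genes nearest in pattern to Ckm, Ckb, Slc6a8 and Ampd1, and the markers; 2 genes that this rule names are not reported here. The members and lists were chosen with earlier results of these data known. Alternatives were DESeq2 1.42.0, upper-quartile factors, library totals, ERCC totals, no filter or at least 10 counts per library, and a replicate block. Further alternatives were shares of raw counts, shares with the length of the longest transcript, and leaving out each library. Libraries held 25449759 to 40895840 gene counts. Intervals and floors cover counting error only.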

Additional observations from a re-analysis of the deposited data

How the results depend on the processing

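Ckm, Ckb, Ckmt2, Ampd1 and Ampd2 kept their direction and call in every alternative that tested them; Ckmt2 and Ampd1 were not tested with at least 10 counts in every library. Scaling to ERCC totals called 5560 genes in place of 13510, and of the members it left 4 higher, 1 lower and 4 higher without overlap. It put Gamt at -0.41, Slc6a8 at -0.25, Ampd3 at -0.10, Adsl at -0.24, Slc25a4 at -0.17 and Mat2a at -0.21, opposite to the values with TMM. It left, of the lists, 1 higher among the purine nucleotide cycle partners, 2 higher and 4 lower among nucleotidases and purine salvage, 0 higher and 0 lower among the mitochondrial partners (0 at an unadjusted p under 0.05 by edgeR, while DESeq2 with its own size factors called 3 higher and 1 lower), and 1 higher among the supply genes. With at least 10 counts in every library, 2 adenylate kinases were higher. With shares of raw counts, Ckmt2 made up 98.5% of the mitochondrial forms, and the change was 9.39 points for Ampd1 and -25.0 for Ampd2. DESeq2 called 12765 genes, and without each library in turn edgeR called 13236 to 13599 genes, which left the member counts at 6 to 7 higher and 2 lower. The libraries share only a number across days. Same-numbered libraries deviated together weakly (correlations 0.027, 0.104 and 0.047). Each correlated best with its own number, for D0 replicate 1 by 0.027 against 0.015 with D5 replicate 3. Whether the numbers mark a pairing was not tested and is not given by the design. With the replicate block 13558 genes were called, and it changed no call of a member. At this depth, Ckmt1 in both groups and Ckmt2 at D0 could not be measured, and the causes of these differences were not tested.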
